A study of Mus musculus with 4 samples.

Results

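Selectins and the adhesion molecules of endothelium that leukocytes bind were followed here as 8 genes, Vcam1, Icam1, Icam2, Sele, Selp, Selplg, Cd34 and Podxl. They were chosen by name from the 17915 coding genes of the deposited table, with earlier results of these data known. All 8 were found and all 8 passed the filter on low counts that left 13177 genes for testing. They were measured by bulk RNA sequencing of sorted mouse lung endothelial cells in 4 libraries, of which 2 are tdTomato+ and 2 ZsGreen+. Every library came from mice of the genotype Cdh5-CreER;aSMA-LSL-Dre;NR1, in which a tamoxifen-inducible recombinase under the endothelial Cdh5 promoter allows a second recombinase at the alpha smooth muscle actin locus to be made, and the NR1 reporter is read as ZsGreen in endothelial cells and as tdTomato once that locus has been active. Both groups had tamoxifen 5 times and were taken 6 weeks after transverse aortic constriction (TAC), a narrowing of the aorta, so neither group is an unoperated control. Ages are not given in the labels, nor whether the libraries, each labelled a biological replicate, came from separate mice or pools, so the p-values speak for the spread among these libraries, which may be technical.

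Leukocytes leave the blood by a cascade of contacts with the vessel wall. Selectins on endothelium (Sele, Selp) catch sugar-bearing ligands such as the product of Selplg and let cells roll. Immunoglobulin-family receptors (Vcam1, Icam1, Icam2) then bind leukocyte integrins and hold the cells. Sele, Vcam1 and Icam1 are known to be induced by inflammatory cytokines through NF-kappaB, whereas Icam2 is made by resting endothelium. Cd34 and Podxl encode related sialomucins of the apical endothelial surface, which can carry selectin ligands in some vessels and repel cells in others. Lung capillaries are known for holding leukocytes with little rolling, while selectins and Vcam1 are known more from larger vessels and veins.

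RefSeq promoter windows, from 250 bases before to 50 bases after a gene's start in GRCm38.p6, were found for 4 of the 8 genes, Sele, Selp, Icam1 and Cd34. Those of Sele and Icam1 are printed because both genes are cytokine-induced and stood differently in these cells. Sele differed between the groups by more than its spread within them, and Icam1 did not. Capitals mark matches to the motifs searched. The Sele window is chr1:164047984-164048283 and the Icam1 window chr9:21015690-21015989, both on the plus strand.
Sele: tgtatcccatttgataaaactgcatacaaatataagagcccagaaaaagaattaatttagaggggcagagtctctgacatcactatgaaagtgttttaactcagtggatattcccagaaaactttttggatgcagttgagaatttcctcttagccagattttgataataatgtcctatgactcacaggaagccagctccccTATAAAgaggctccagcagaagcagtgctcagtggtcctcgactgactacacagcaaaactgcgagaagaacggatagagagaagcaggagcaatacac
Icam1: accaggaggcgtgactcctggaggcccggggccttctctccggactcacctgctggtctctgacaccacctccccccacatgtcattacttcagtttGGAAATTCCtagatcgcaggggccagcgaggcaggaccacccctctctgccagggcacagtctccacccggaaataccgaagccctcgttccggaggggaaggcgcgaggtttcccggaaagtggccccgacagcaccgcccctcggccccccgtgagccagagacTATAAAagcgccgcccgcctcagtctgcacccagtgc
Both strands were searched for the kappaB consensus, a shorter kappaB core (GGAANTTCC, a palindrome found on both strands at once), the TATA box (TATAAA) and an interferon regulatory factor element (GAAA, any 2 bases, GAAA). The kappaB core was matched once in Icam1, starting at base -153 from the gene's start, where it reads GGAAATTCC, and 0.928% of 32851 windows of the same length held it. The letters TATAAA were matched at base -49 in Sele and at base 13 after the start in Icam1, and 13.6% of windows held them. Matches were counted at any position and on either strand, so a match need not be a working TATA box. Selp and Cd34 matched none of the 4, and Sele and Icam1 none of the others. The kappaB consensus was held by 4.51% and the interferon element by 3.44% of windows. Only exact matches to the patterns were counted. A window without a match, such as that of Sele for kappaB, may therefore still hold a variant of the motif. The Sele window lies inside the deposited span of the gene, 164039614 to 164058487, so it belongs to a start other than the outermost one.

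Depth was similar in the 4 libraries, with 17050661 to 18574748 counts and 14961 to 15736 genes with a count, and each of the 8 genes but Selplg rested on at least 1074 counts in each. Defining endothelial markers were high in every library, with Pecam1 at 1808 to 2103 CPM (counts divided by TMM-scaled library size) and Cdh5 at 1112 to 2421 CPM. The 10 endothelial markers had a median log2 fold change (tdTomato+ over ZsGreen+) of -0.13, with 3 above 0 and 7 below. Cldn5, named after its values were seen, was at -0.84 (SE 0.22) and was called lower by DESeq2. RNA known from other cells was also read. Markers of leukocytes, 12 genes, summed to 4760 and 2470 CPM in tdTomato+ replicates 1 and 2 and to 2789 and 602 CPM in ZsGreen+ replicates 1 and 2, most of it Lyz2, lysozyme of myeloid cells. Fibroblast markers, 11 genes, summed to 273 and 482 CPM against 137 and 155 CPM. Their median log2 fold change (tdTomato+ over ZsGreen+) was 1.27, with 10 above 0 and 1 below. The part of fibroblast RNA in Vcam1 and the other adhesion genes was not tested. Mesothelial markers stood at 19.8 to 33.5 CPM in sum and platelet markers, 10 genes, at 22.2 to 44.7 CPM. No gene of the leukocyte, fibroblast, mesothelial or platelet lists was at 0 in all libraries. In bulk RNA a change in the share of cells of one type and a change of RNA per cell cannot be told apart.

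Vcam1, 4.01-fold higher in tdTomato+ cells, was the only 1 of the 8 to pass edgeR's test over all genes. Sele and Selp stood 2.90-fold and 2.68-fold higher without passing that test. Whether the 3 genes differed from each other in fold change was not tested. Icam1, in contrast, overlapped between the groups, and Icam2, Cd34 and Podxl stood at 0.68 to 0.78 of their ZsGreen+ level without passing edgeR's test. By edgeR's quasi-likelihood test with Benjamini-Hochberg adjustment 1 of 8 genes was called higher and 0 lower, where 0.304% of all genes tested were called, 0.167% higher and 0.137% lower. At an unadjusted edgeR p under 0.05 there were 4, Vcam1, Sele and Selp higher and Icam2 lower, where 8.77% of all genes passed. DESeq2 called 3, Vcam1, Sele and Selp, all higher, where it called 1.51% of its genes higher and 0.933% lower. In 4 genes both tdTomato+ libraries lay above both ZsGreen+ libraries in CPM and in 3 both lay below, which 19.9% and 18.2% of all genes did. Median log2 fold change (tdTomato+ over ZsGreen+) of the 8 was 0.79, beside -0.0068 over all genes tested. As the 8 were chosen with earlier results of these data known, counts and medians set beside all genes are description only. The plot of log2 fold changes sets the 8 genes side by side.

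The count of called genes moved with the setting, and so did the share of all genes called. Vcam1 alone was called with RLE factors (0.311% of all genes called), upper quartile factors (0.281%), limma-voom (0.25%), a stricter filter at a minimum count of 30 (0.385%) and without ZsGreen+ replicate 2 (0.19%). Vcam1 and Sele were called by limma on log2(TPM + 1) (0.259%) and on log2(TPM + 0.1) (0.184%), and Vcam1, Sele and Selp by edgeR with no filter on low counts (0.764%). Without ZsGreen+ replicate 1 there were 4, those 3 and Selplg (2.21%). Without tdTomato+ replicate 1 (0.126%) or replicate 2 (0.0295%) none of the 8 was called.

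**Figure D1:**
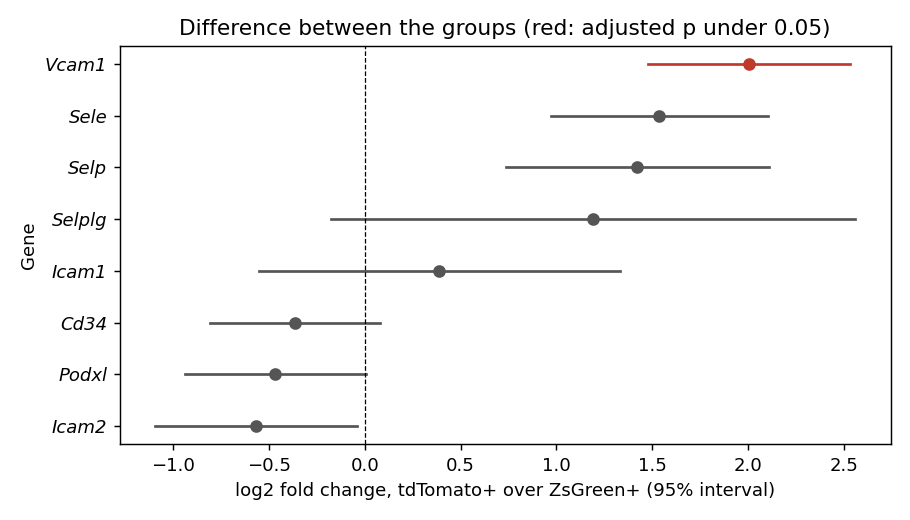
Log2 fold change of each adhesion gene, tdTomato+ over ZsGreen+, from edgeR with its 95% interval (n = 2 libraries per group); red marks an adjusted p under 0.05. Vcam1 alone is past that threshold at 2.00, the intervals of Sele and Selp lie above 0, and the interval of Icam1 runs from -0.55 to 1.33.

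Per transcript length, the 8 genes spanned a wide range of levels in the authors' TPM, a level scaled for gene length and library size. In tdTomato+ cells Cd34 led at 1018 ± 29.6 TPM (SD, n = 2), followed by Icam2 at 686 ± 124, Icam1 at 653 ± 172, Selp at 411 ± 96.2, Sele at 224 ± 27.9, Podxl at 212 ± 7.86, Vcam1 at 141 ± 11.4 and Selplg at 28.0 ± 11.5 TPM. The library ranges of Icam2 and Icam1 overlapped, as did those of Sele and Podxl, and the other neighbours in this order did not overlap. In ZsGreen+ cells the order was Cd34 at 1180 ± 102 TPM, Icam2 at 920 ± 191, Icam1 at 433 ± 203, Podxl at 266 ± 62.5, Selp at 135 ± 30.3, Sele at 69.0 ± 7.72, Vcam1 at 31.3 ± 4.00 and Selplg at 10.8 ± 7.87 TPM. There only Icam1 and Podxl overlapped. Podxl thus stood above both selectins in ZsGreen+ cells, and below Selp and level with Sele in tdTomato+ cells. By mean rank among the table's rows Cd34 lay at percentile 99.1, Icam2 at 98.7 and Icam1 at 97.9, and Selplg was the lowest of the 8 at 67.6.

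**Figure D2:**
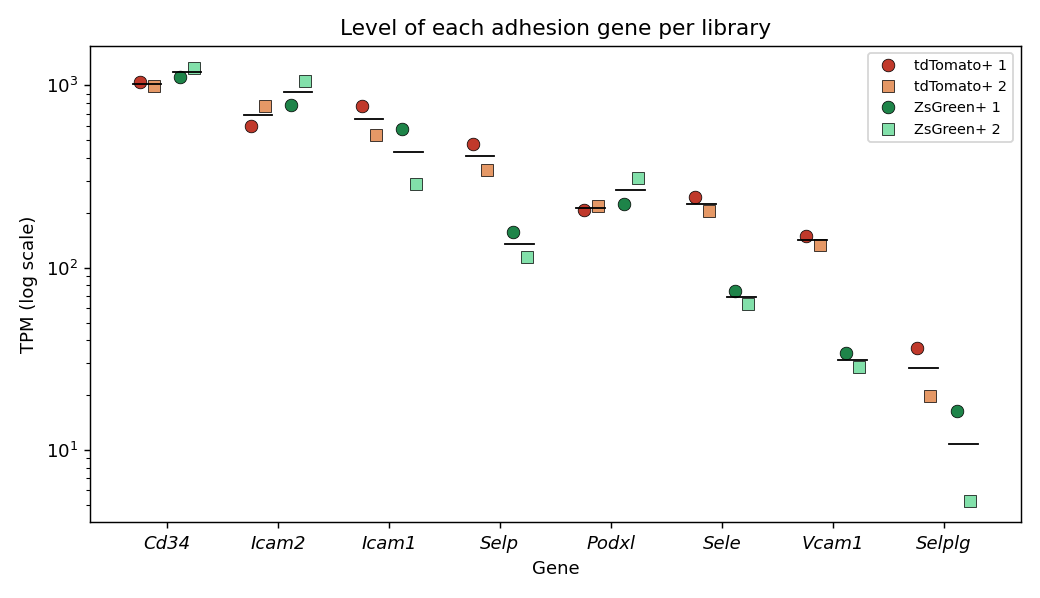
TPM of each adhesion gene (log axis) in the 4 libraries, red and orange for tdTomato+ and dark and light green for ZsGreen+, with a bar at each group's mean. The groups are apart for Vcam1, Sele and Selp, with Vcam1 at 133 and 149 TPM against 28.4 and 34.1 TPM, and close together for Cd34.

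Of the immunoglobulin-family receptors, Vcam1, which binds the integrin alpha4 beta1 of lymphocytes, monocytes and eosinophils, stood at 149 and 133 TPM in tdTomato+ replicates 1 and 2 and at 34.1 and 28.4 TPM in ZsGreen+ replicates 1 and 2. These rested on 5345, 5251, 1315 and 1074 counts. The groups did not overlap, and the lower tdTomato+ library was far above the higher ZsGreen+ library. The higher library exceeded the lower 1.07-fold within tdTomato+ cells and 1.41-fold within ZsGreen+ cells. Its log2 fold change was 2.00 (SE 0.22, 95% interval 1.48 to 2.53, edgeR adjusted p = 0.0304). With tdTomato+ replicate 1 left out it was 1.96 and the call was lost (edgeR adjusted p = 0.0761), and with tdTomato+ replicate 2 left out it was 2.07 and the call was lost too (adjusted p = 0.122). Vcam1 (NCBI Gene 22329) spans 116110020 to 116129688 of chromosome 3 in GRCm38.

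Icam1, the receptor for the integrins LFA-1 and Mac-1, was read at 774 and 531 TPM in tdTomato+ cells and at 576 and 289 TPM in ZsGreen+ cells. The groups overlapped, with tdTomato+ replicate 2 below ZsGreen+ replicate 1. Within ZsGreen+ cells alone the libraries differed 2.35-fold. On the log2 scale the fold change was 0.39 (SE 0.40, 95% interval -0.55 to 1.33, edgeR adjusted p = 0.884), and without ZsGreen+ replicate 2 it changed sign to -0.10. Icam1 (NCBI Gene 15894) lies at 21015940 to 21028814 of chromosome 9. Next to it are its relatives Icam4 and Icam5, named after their values were seen, both at or below 3.34 TPM in every library.

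Icam2, a constitutive ligand of LFA-1, showed the opposite order, at 599 and 774 TPM in tdTomato+ cells and 786 and 1055 TPM in ZsGreen+ cells. All of the tdTomato+ values lay below the ZsGreen+ values, though tdTomato+ replicate 2 came close to ZsGreen+ replicate 1. The log2 fold change was -0.57 (SE 0.22, 95% interval -1.09 to -0.04, edgeR adjusted p = 0.527). The gene (NCBI Gene 15896) spans 106377656 to 106388139 of chromosome 11.

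Ratios taken within a library do not depend on how libraries are scaled. Vcam1 stood at 19.3% and 25.0% of the Icam1 TPM in tdTomato+ cells and at 5.92% and 9.83% in ZsGreen+ cells. Against Icam2 it stood at 24.9% and 17.2%, compared with 4.34% and 2.70%. Against Pecam1, the endothelial marker, Vcam1 was at 15.1% and 14.6% in tdTomato+ cells and 3.79% and 2.91% in ZsGreen+ cells. All 3 ratios were higher in both tdTomato+ libraries than in either ZsGreen+ library. The ratio of Icam1 to Icam2 overlapped between the groups, at 1.29 and 0.687 against 0.733 and 0.274. With 2 against 2 libraries an exact two-sided permutation test cannot go below p = 0.333, so no ratio was tested.

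The endothelial selectins stood higher in tdTomato+ cells. Sele, E-selectin, which is made on demand and slows rolling leukocytes, was at 244 and 204 TPM in tdTomato+ cells and at 74.4 and 63.5 TPM in ZsGreen+ cells. The groups did not overlap. Its log2 fold change was 1.54 (SE 0.24, 95% interval 0.97 to 2.10, edgeR adjusted p = 0.0832), which missed the threshold. DESeq2 gave 1.52 and called it (adjusted p = 1.87e-07), as did limma on log2(TPM + 1) at 1.68 (adjusted p = 0.0354) and edgeR without ZsGreen+ replicate 1 at 1.80 (adjusted p = 0.0144).

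Selp, P-selectin, which endothelium stores in Weibel-Palade bodies beside von Willebrand factor and platelets store in their granules, was at 479 and 343 TPM against 157 and 114 TPM. Here too both tdTomato+ libraries lay above both ZsGreen+ libraries. The log2 fold change was 1.42 (SE 0.29, 95% interval 0.74 to 2.11, edgeR adjusted p = 0.154), and DESeq2 called it (1.41, adjusted p = 7.53e-05), as did edgeR without ZsGreen+ replicate 1 (1.82, adjusted p = 0.0183). Of 8 platelet markers tested 1 had a log2 fold change above 0, with a median of -0.19, and the part of platelet RNA in the Selp difference was not tested. The most abundant of them, Pf4, platelet factor 4, stood at 12.0 and 12.9 CPM against 19.8 and 9.69 CPM.

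Both endothelial selectin genes lie on chromosome 1, Sele at 164039614 to 164058487 (NCBI Gene 20339) and Selp at 164115264 to 164150026 (NCBI Gene 20344). F5, coagulation factor V, which follows Selp on the chromosome and is named after its values were seen, was at or below 0.40 TPM. Selp exceeded Sele by a like factor in every library, 1.96 and 1.68 in tdTomato+ cells and 2.11 and 1.79 in ZsGreen+ cells. Relative to Vwf, von Willebrand factor, Selp overlapped between the groups, at 1.26 and 0.645 against 1.08 and 0.750 in TPM ratio.

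Selplg encodes PSGL-1, the selectin ligand of leukocytes, and was the lowest of the 8. It was at 36.2 and 19.9 TPM in tdTomato+ cells and 16.4 and 5.27 TPM in ZsGreen+ cells, on 706, 425, 334 and 104 counts. Both tdTomato+ values lay above both ZsGreen+ values, by little between tdTomato+ replicate 2 and ZsGreen+ replicate 1. Within groups the libraries differed 1.74-fold and 3.71-fold. For Selplg the log2 fold change was 1.19 (SE 0.58, 95% interval -0.17 to 2.56, edgeR adjusted p = 0.645). It was 2.43 without ZsGreen+ replicate 1, where edgeR called it (adjusted p = 0.0323), and 0.53 without ZsGreen+ replicate 2. Ptprc, CD45 of all leukocytes, moved with it, at 20.7 and 13.8 CPM against 8.60 and 3.50 CPM. Selplg was 5.32 and 4.59 times Ptprc in tdTomato+ cells and 7.07 and 4.75 times in ZsGreen+ cells by TPM, ratios that overlapped. The part of leukocyte RNA in the Selplg difference was not tested. The gene (NCBI Gene 20345) has a deposited span of 113817798 to 113840218 on chromosome 5.

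The sialomucins stood slightly lower in tdTomato+ cells. Cd34 was at 1039 and 997 TPM against 1108 and 1253 TPM. The libraries of each group lay close together, within 1.04-fold in CPM, and the groups did not overlap. Cd34 had a log2 fold change of -0.36 (SE 0.19, 95% interval -0.81 to 0.08, edgeR adjusted p = 0.688). Podxl, podocalyxin, was at 206 and 217 TPM against 222 and 311 TPM, with tdTomato+ replicate 2 just under ZsGreen+ replicate 1. Its log2 fold change was -0.47 (SE 0.20, 95% interval -0.94 to 0.01, edgeR adjusted p = 0.575). The TPM ratio of Podxl to Cd34 was nearly even across the libraries, at 0.198 and 0.218 against 0.200 and 0.248. Cd34 (NCBI Gene 12490) spans 194938821 to 194961292 of chromosome 1 and Podxl (NCBI Gene 27205) 31519493 to 31563937 of chromosome 6. Podxl2, endoglycan, the remaining gene of this family, was at or below 2.73 CPM in every library.

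Besides the groups, the libraries themselves had an order in these genes. Vcam1, Icam1, Sele, Selp and Selplg, 5 of the 8, were highest in tdTomato+ replicate 1 and lowest in ZsGreen+ replicate 2, a pattern of 11.6% of all genes tested. The same held for 10 of 12 leukocyte markers, for 6 of 7 leukocyte integrin genes and for 9 of 25 genes of cytokine receptors and NF-kappaB. In percent of its mean over the 4 libraries, the leukocyte marker sum was 179, 93.0, 105 and 22.7 in tdTomato+ replicates 1 and 2 and ZsGreen+ replicates 1 and 2. Selplg was at 177, 101, 96.1 and 25.9, close to that profile. Icam1, at 132, 95.1, 122 and 51.7, was like it in order, with ZsGreen+ replicate 1 above tdTomato+ replicate 2. Vcam1 was at 165, 155, 46.8 and 33.1, Sele at 164, 134, 59.8 and 42.7 and Selp at 166, 125, 67.3 and 41.4. All of these lay above the leukocyte sum in replicate 2 of both groups and below it in replicate 1 of both. The part of these leukocyte and library differences in Icam1, Sele, Selp and Vcam1 was not tested.

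**Figure D3:**
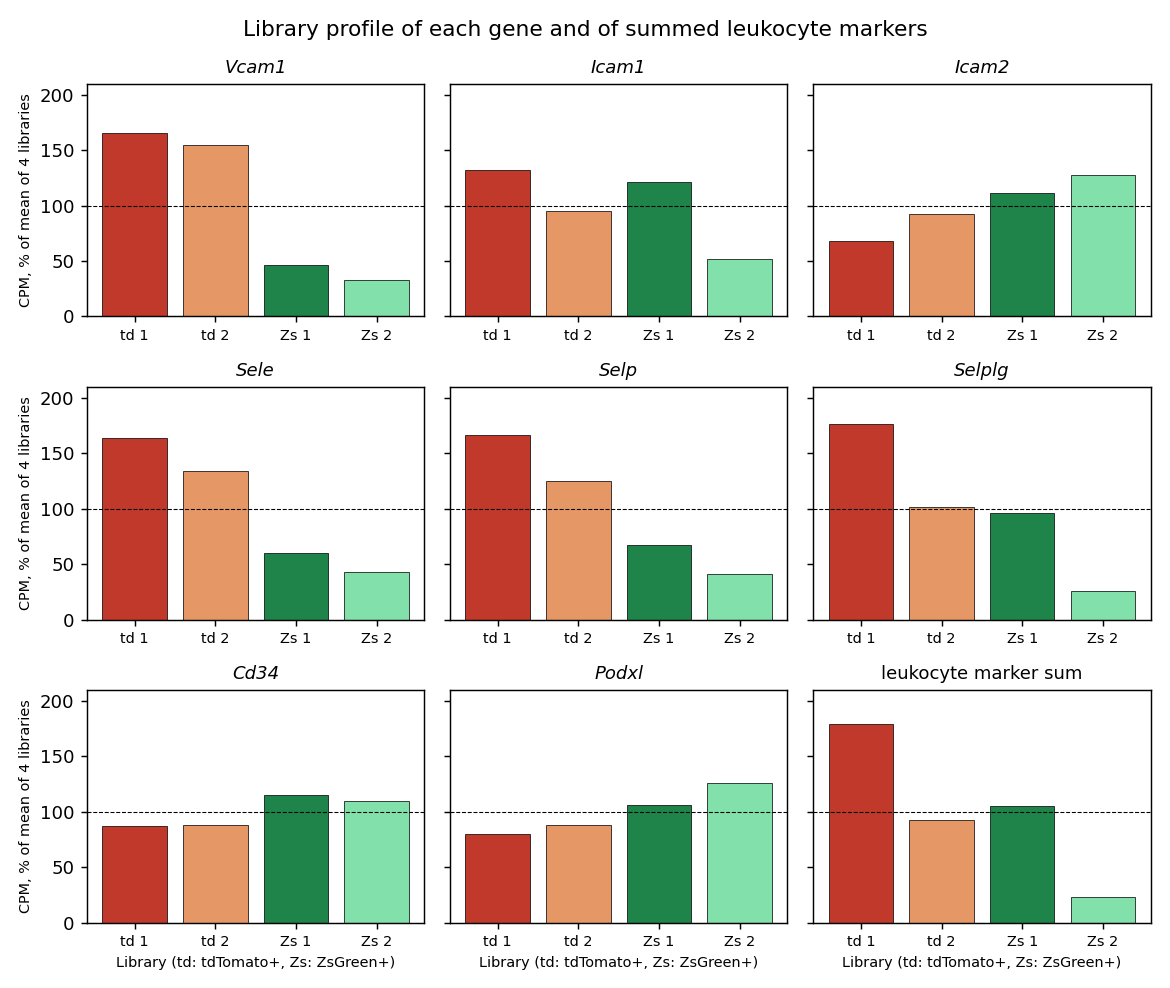
CPM of each adhesion gene in each library as a percentage of its mean over the 4 libraries, with the sum of 12 leukocyte markers in the last panel (td, tdTomato+; Zs, ZsGreen+; dashed line, 100%). In ZsGreen+ replicate 2 the leukocyte sum falls to 22.7%. There Selplg is at 25.9%, Vcam1 at 33.1%, Selp at 41.4%, Sele at 42.7% and Icam1 at 51.7%. Both tdTomato+ libraries lie above both ZsGreen+ libraries for Vcam1, Sele, Selp and Selplg, and below for Icam2, Cd34 and Podxl.

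Around these 8 genes, 139 other genes of the adhesion cascade were listed in 10 groups and 138 of them found. None of the 132 tested passed edgeR's adjusted test. The lists too were chosen with earlier results of these data known, so their counts and medians are description only. At an unadjusted edgeR p under 0.05 there were 29, where 8.77% of all genes passed. DESeq2 called 13, where it called 1.51% of its genes higher and 0.933% lower. Limma-voom called 0, where it called 0.25% of all genes. Without ZsGreen+ replicate 1, where more of all genes were called too, edgeR called some of those named here. These were Cd44, Gata6, Itgb2, Ptgs2, Tnfaip2 and Vwf, higher, and Clic5 and Lcn2, lower. Partners that leukocytes bring to the wall were read at low levels. Of 8 leukocyte integrin genes 7 were tested, all with a log2 fold change above 0 and a median of 1.11. Itgb2, the beta2 chain that pairs with Itgal and Itgam to bind the Icam products, stood at 128 and 69.3 CPM against 61.7 and 22.6 CPM (1.23 on the log2 scale, SE 0.48). It was 2.13 without ZsGreen+ replicate 1, where edgeR called it (adjusted p = 0.0385), and 0.67 without ZsGreen+ replicate 2. Itgal was at 3.56 to 15.0 CPM. Itgam, called by DESeq2, was nearly even within tdTomato+ cells, at 9.02 and 8.82 CPM against 3.48 and 2.52 CPM. Itga4, which binds Vcam1, was at or below 3.68 CPM. As given above, 6 of the 7 shared their highest and lowest library with the leukocyte marker sum, and the part of leukocyte RNA in their differences was not tested.

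Genes that make selectin ligands went both ways. Of the 14 tested, 7 had a log2 fold change above 0 and 7 below, with a median of 0.02. Gcnt1, which builds the branched sugar that selectins bind, had the lowest edgeR p of these, at 13.5 and 10.3 CPM against 4.17 and 3.50 CPM (1.64, SE 0.34, edgeR adjusted p = 0.164, called by DESeq2). B4galt1, a galactosyltransferase, was at 0.47 (SE 0.20) and Tpst2, which sulfates tyrosines of PSGL-1, at -0.45 (SE 0.22). Fut7 and Fut4, the leukocyte fucosyltransferases of this pathway, were at or below 1.46 CPM. Other rolling ligands and sialomucins, 8 tested, had a median of 0.64 with 7 above 0. In 5 of the 8 both tdTomato+ libraries lay above both ZsGreen+ libraries, which 19.9% of all genes did. Among them Cd44, a hyaluronan receptor that can bind E-selectin, was at 97.4 and 111 CPM against 55.4 and 44.0 CPM (1.07, SE 0.20, edgeR adjusted p = 0.122, called by DESeq2). Spn, leukosialin, was at 2.13 (SE 0.52) but at or below 5.66 CPM.

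Cytokine receptors and NF-kappaB genes, which drive Sele, Vcam1 and Icam1 in inflamed endothelium, centred on a median of 0.15 over 25 genes, again as log2 fold change. Gata6, a transcription factor, was at 46.9 and 67.3 CPM against 23.6 and 21.6 CPM (1.34, SE 0.24, edgeR adjusted p = 0.115, called by DESeq2). The receptors Il13ra1 and Il1r1 were at 0.74 (SE 0.19) and 0.71 (SE 0.22). Nfkbia, the inhibitor that NF-kappaB itself induces, overlapped between the groups, at 1279 and 819 CPM against 1291 and 541 CPM. Nfkbia is named after its values were seen. Of the 25 genes, both tdTomato+ libraries lay above both ZsGreen+ libraries in 7 and below in 3, which 19.9% and 18.2% of all genes did. The part of NF-kappaB in the adhesion genes was not tested. Other inflammatory products of endothelium, 17 genes, had a median of 0.93, with 14 above 0 and 3 below. Of these 17, 7 were highest in tdTomato+ replicate 1 and lowest in ZsGreen+ replicate 2, as 10 of 12 leukocyte markers were, and the part of leukocyte RNA in them was not tested. Ptgs2, cyclooxygenase-2, was at 107 and 95.03 CPM against 22.5 and 38.2 CPM (1.74, SE 0.27, edgeR adjusted p = 0.0865). Tnfaip2 was at 1.54 (SE 0.29), and Lcn2, lipocalin 2, ran the other way at -1.48 (SE 0.21, edgeR adjusted p = 0.0606). DESeq2 called Ptgs2, Tnfaip2, Cxcl1 and Cxcl2 higher and Lcn2 lower; both chemokines are named after their values were seen.

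Genes of the Weibel-Palade body had a median of 0.49 over 13 tested. Vwf, its main cargo, was at 2005 and 2960 CPM against 946 and 845 CPM (1.47, SE 0.25, edgeR adjusted p = 0.103, called by DESeq2), Myrip, a Rab27a effector, was at 1.94 (SE 0.49, called by DESeq2) and Cd63, which holds P-selectin at the surface, at 0.69 (SE 0.19). The ERM proteins and other binders of the cytoplasmic tails had a median of -0.12 over 12 genes. Clic5 was at 51.7 and 57.8 CPM against 83.5 and 168 CPM (-1.20, SE 0.32, called lower by DESeq2). It was -1.62 without ZsGreen+ replicate 1, where edgeR called it (adjusted p = 0.00846), and -0.61 without ZsGreen+ replicate 2. Slc9a3r2, a scaffold of podocalyxin, was at -0.33 (SE 0.22) and Rdx, radixin, at -0.37 (SE 0.25). Rdx is at 0.027 without ZsGreen+ replicate 2.

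Junctional molecules of transmigration had a median of -0.10 over 16 genes. Jam2, a junctional adhesion molecule that binds alpha4 beta1 integrin, was at 295 and 359 CPM against 173 and 172 CPM (0.93, SE 0.19, edgeR adjusted p = 0.161, called by DESeq2). Alcam was at 1.27 (SE 0.34) and Aoc3, vascular adhesion protein 1, at 2.49 (SE 0.75), the latter at or below 2.05 CPM. Enzymes that shed adhesion molecules had a median of 0.24 over 8 genes, with Mmp9 at 1.19 (SE 0.58), Adam8 at 0.73 (SE 0.45) and Mmp14 at -0.26 (SE 0.16). Genes of the sugar coat above the adhesion molecules had a median of -0.08 over 12 genes, with the heparan sulfate cleaving Hpse at 1.44 (SE 0.40), the hyaluronan synthase Has1 at 1.59 (SE 0.51) and Sdc3, syndecan 3, at -0.49 (SE 0.21).

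**Figure D4:**
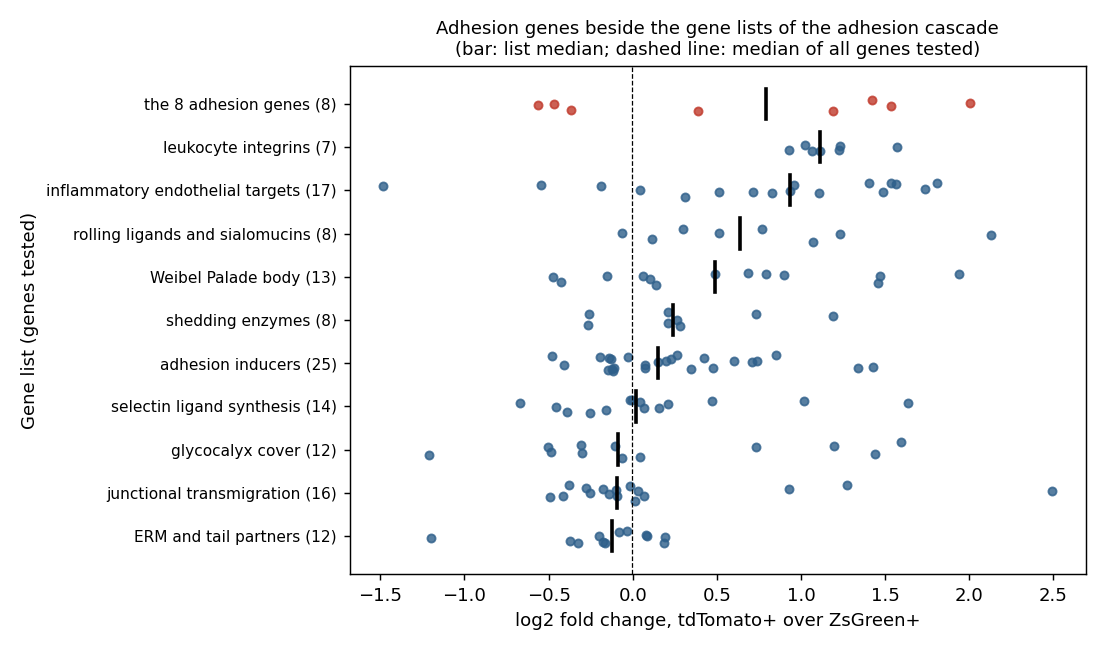
Log2 fold change, tdTomato+ over ZsGreen+, of each gene tested in the 10 lists of the adhesion cascade and of the 8 adhesion genes (red, top), with a bar at each median and a dashed line at the median of all genes tested. Leukocyte integrins have the highest list median at 1.11 and ERM and tail partners the lowest at -0.12.

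Markers of vessel types differed beside these genes. Of 10 venous markers 2 were called higher in tdTomato+ cells by edgeR, Cpe and Car8, where 0.167% of all genes were. The list median was 1.10, with 9 above 0 and 1 below. Nr2f2, named after its values were seen, and Ephb4 overlapped between the groups, at 0.20 (SE 0.29) and -0.058 (SE 0.20). Ackr1, a chemokine-binding receptor known from venules and named after its values were seen, was at 108 and 50.01 CPM in both tdTomato+ libraries, against 46.0 and 7.50 CPM in the ZsGreen+ pair (1.57 on the log2 scale, SE 0.75). Lymphatic markers had a median of -2.21 over 8 tested with 4 called lower, where 0.137% of all genes were. Lyve1, the most abundant of them, was the 1 above 0, at 0.42 (SE 0.31). The summed lymphatic CPM overlapped between the groups, at 720 and 1015 against 981 and 1281. Aerocyte markers had a median of -0.91 over 10 with 1 called lower. General capillary markers had one of -0.34 over 10, with none past edgeR's adjusted test. Of these, 4 were lower at an unadjusted edgeR p under 0.05, which 8.77% of all genes passed in either direction. DESeq2 called 3 of them lower, where it called 0.933% of its genes lower. The part of these differences in the adhesion genes was not tested. Type 2 alveolar cell markers, 8 tested, stood at a median of 0.93 and summed to 480 and 553 CPM against 344 and 197 CPM. Those of type 1 cells, which are known to make Icam1 too, stood at a median of 0.31 over 8 tested and summed to 40.4 and 58.7 CPM against 78.7 and 76.8 CPM. Of these Pdpn, podoplanin, which the lymphatic list also holds, was at 15.3 and 6.87 CPM against 47.6 and 42.9 CPM (-2.03, called lower by DESeq2), and Ager at 15.8 and 30.9 CPM against 21.6 and 19.8 CPM. The part of alveolar RNA in the adhesion genes was not tested.

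The genes whose profile over the 4 libraries was nearest to Vcam1, by distance of centred log2 CPM among 10160 candidates with a mean of at least 5 CPM, were Spint2 (distance 0.18), Fn1 (0.216), Ankrd29 (0.239), Slc45a4 (0.278) and Ccdc80 (0.349). Spint2 encodes a protease inhibitor and Fn1 fibronectin, itself a ligand of alpha4 beta1 integrin. Both, and the matrix-associated Ccdc80, stood higher in tdTomato+ cells, at log2 fold changes of 2.13, 1.80 and 2.24 (edgeR adjusted p = 0.0304, 0.0467 and 0.0304). Without tdTomato+ replicate 2 all 3 lost the call (adjusted p = 0.192 for Spint2, 0.18 for Fn1 and 0.122 for Ccdc80). Without tdTomato+ replicate 1 Spint2 (0.0706) and Fn1 (0.12) lost it, and Fn1 also without ZsGreen+ replicate 2 (0.0553) and by limma on log2(TPM + 0.1) (0.0505). Nearest to Sele were Ly75 (0.0586), an endocytic lectin-like receptor, Pcdh7 (0.0756), a protocadherin, Fam107a (0.142), Auts2 (0.159) and Plekha7 (0.183), a junction protein. Of these 5, none passed edgeR's adjusted test, with adjusted p from 0.0715 to 0.226. Being chosen by likeness to Vcam1 or Sele in these same libraries, such genes share the group difference by construction. Their fold changes and calls are therefore no separate result. Over 4 libraries such a distance is a description of these libraries only.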

How the data were processed

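Total RNA was amplified with a whole-transcriptome kit before library preparation, per the labels' protocols, which can add spread between libraries. The authors deposited 1 table of estimated counts (read counts per the file headers, 16.2% to 17.9% of values not whole), TPM, FPKM and a normalized read count, a signal per the file headers. RSEM 1.3.1, DESeq2 1.4.5 and the build GRCm38 are named in the submitters' processing notes, without a role for each. Aligner and strand setting were not given in the sources used here, and overlapping genes cannot be told apart. FPKM and the normalized signal entered no result.

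Estimated counts were rounded and compared with edgeR 4.0.16 (R 4.3.3) by its two-sided quasi-likelihood F-test, with TMM, filterByExpr at a minimum count of 10, Benjamini-Hochberg adjustment over 13177 genes and a threshold of 0.05. Each SE was derived from the fold change and its F statistic. Levels between genes are TPM as deposited. Sample titles gave the groups and replicate numbers. The tests were run on counts simulated as independent libraries, so that check does not cover same-numbered libraries deviating together. The 8 genes and all lists were chosen with earlier results of these data known.

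The rule for names took the 8 genes, up to 3 genes per list by edgeR p with a mean of at least 1 CPM, the 2 most abundant of each marker list (printed only where set beside a result or where the sign changed), and the 5 genes nearest to Vcam1 and to Sele. Genes outside this rule were chosen once their values were known: Cdh5, Ptprc, Itga4, Fut4, Fut7, Podxl2, Cpe, Car8 and those marked so in the text. Also tried were other normalization (RLE, upper quartile), DESeq2 1.42.0, limma-voom (limma 3.58.1), no filter or a minimum count of 30, each library left out, a replicate block, and limma with trend on log2 of TPM plus 1 or plus 0.1. Intervals cover the spread between libraries, and reads of amplified RNA are not independent molecules.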

Additional observations from a re-analysis of the deposited data

How the results depend on the processing

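The log2 fold changes of the 8 adhesion genes kept their direction under all 13 alternatives, except Icam1 at -0.10 without ZsGreen+ replicate 2. Vcam1 ranged from 1.77 to 2.28 with 1 library left out and kept its call under every alternative but the loss of either tdTomato+ library. Leaving out libraries, Sele ranged from 1.31 to 1.80, Selp from 1.11 to 1.82, Selplg from 0.53 to 2.43 and Icam1 from -0.10 to 1.14. The number of the 8 called ran from 0 to 4 with 1 library left out, and was 3 by DESeq2 and with no filter on low counts, and 2 by limma on log2(TPM + 1) and log2(TPM + 0.1). Sele was then called at 1.52 by DESeq2, 1.54 without a filter, and 1.68 and 1.70 on the TPM scales, and Selp at 1.41 by DESeq2 and 1.42 without a filter. Over all genes the 40 calls became 330 by DESeq2, 128 without a filter, 22 on log2(TPM + 0.1), and 17 and 4 without tdTomato+ replicates 1 and 2 and 304 and 26 without ZsGreen+ replicates 1 and 2; the cause was not tested. In those 4 fits the lone library of a group is assumed to vary like the other group.

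Same-numbered libraries of both groups deviated together (correlation 0.469 across 13177 genes), but the labels state no shared mouse or day, so the numbers are not taken to pair them. With a replicate block 934 genes (7.09%) were called and 4 of the 8, Vcam1 and also Sele (1.55), Selp (1.45) and Selplg (1.39).

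Of the named genes of the 10 lists, leaving out 1 library moved 6 by over 1.5-fold, Itgb2 (0.67 to 2.13), Clic5 (-1.62 to -0.61), Itgal (0.64 to 1.72), Myrip (1.24 to 2.45), Has1 (1.12 to 2.33) and Aoc3 (2.04 to 3.21). Other named genes that changed sign were not called in either setting. With 1 library left out, Rdx ranged from -0.68 to 0.027, Pf4 from -0.67 to 0.37, Itga2b from -0.65 to 0.66, Ager from -0.37 to 0.58, Abca3 from -0.12 to 0.31, Ephb4 from -0.22 to 0.10, Plvap from -0.30 to 0.34 and Cd93 from -0.29 to 0.050. On log2(TPM + 1) and log2(TPM + 0.1), which raised the log2 fold change of the shared genes by a median of 0.15 each, the sign changed in Pecam1 (0.016 in both), Pf4 (0.016 and 0.017), Itga2b (0.092 and 0.14), Ephb4 (0.082 and 0.083), Plvap (0.17 in both) and Cd93 (0.030 in both). Limma-voom turned Itga2b (0.026) and Plvap (0.014), upper quartile factors Plvap (0.030) and the replicate block Plvap (0.016).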
